A study of Mus musculus with 12 samples.

Results

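The globin genes encode the protein chains of hemoglobin, and 6 of them were followed here across sorted hematopoietic stem cells of the mouse. The members were Hba-a1, Hba-a2, Hbb-bs, Hbb-bt, Hbb-bh1 and Hbb-y, taken by Ensembl identifier from a table of 35275 genes, and all 6 were found. They were chosen by name and not by their values. RNA of hematopoietic stem cells was sequenced in 12 libraries, 3 for each of 4 groups of C57BL/6 mice. Knockout mice (Thpo-/-) lack thrombopoietin, and wild-type mice carry Thpo+/+. The groups were knockout mice given Romiplostim, untreated knockout mice, wild-type mice given Romiplostim and untreated wild-type mice. Romiplostim, an agonist of the thrombopoietin receptor, was given by vein over 10 days at a daily 100 µg/kg, and the protocol names PBS for controls that the labels call untreated.

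An adult hemoglobin molecule pairs alpha chains with beta chains around heme, and an imbalance of the chains is known to harm red cell precursors. In the mouse the alpha genes lie together on 1 chromosome and the beta genes on another, where the embryonic genes are active first and the adult genes replace them. Both clusters are switched on late in red cell formation by GATA1 and KLF1, while Bcl11a is known to repress the embryonic beta genes. Stem cells are not known as hemoglobin makers, so globin RNA in a sort of stem cells is usually low.

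Depth recovered from the steps of low values was 27.7 to 35.6 M fragments per library, and 11262 to 12374 genes reached 1 FPKM (fragments scaled to gene length and library depth). Thpo lay between 0 and 0.0426 FPKM in every library, so it does not check the genotype labels. Per the series' design text the libraries of each group were put on 1 sequencing run, and run and group cannot be told apart in any comparison. The labels do not say that the replicates are separate animals, so the p-values cover the spread among these samples alone. It may be technical, though in wild type at most in part, by the Y-linked RNA given below. Summed levels of 16 stem cell genes, including Procr, were 1177 to 2107 FPKM in treated knockout, 666 to 914 in untreated knockout, 1989 to 2357 in treated wild type and 2254 to 2849 in untreated wild type. Summed markers of macrophages, myeloid cells, B cells and stromal cells were highest in the 3 untreated knockout libraries, and their levels stand beside the results below. Y-linked genes averaged 11.3 to 24.9 FPKM in all 3 untreated knockout libraries and at most 0.0389 in all 3 treated knockout libraries. In wild type they were at 18.5 or more except in treated replicate 1 (0.0221) and untreated replicate 2 (0.137). The 3 libraries of each wild-type group were thus not all of the same animal.

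On mm10 the alpha genes lie on the plus strand of chromosome 11, Hba-a1 (ENSMUSG00000069919) at 32283511 to 32284465 and Hba-a2 (ENSMUSG00000069917) at 32296489 to 32297298. The beta genes lie on the minus strand of chromosome 7. Hbb-bt (ENSMUSG00000073940) spans 103812524 to 103813996 and Hbb-bs (ENSMUSG00000052305) spans 103826534 to 103828096. They are followed by Hbb-bh1 (ENSMUSG00000052217) at 103841637 to 103843164 and Hbb-y (ENSMUSG00000052187) at 103851749 to 103853216. The adult copies are nearly the same in sequence, which bears on every value below. The coding sequences of Hba-a1 and Hba-a2 differ at 1 of 426 bases, and those of Hbb-bs and Hbb-bt at 1 of 441 (GENCODE M21, stop codon left out). The difference between the adult beta genes is shown here, coding bases 382 to 441, with the differing base in capitals.
Hbb-bs: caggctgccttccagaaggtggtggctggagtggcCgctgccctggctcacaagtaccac
Hbb-bt: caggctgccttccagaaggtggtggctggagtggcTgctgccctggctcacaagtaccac

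A read of 150 bases can therefore name its gene mainly from the untranslated ends. Of all stretches of that length, 41.3% in the Hbb-bs transcript are not found in Hbb-bt and 49.3% in Hbb-bt are not found in Hbb-bs. For the alpha genes the shares are 51.6% in Hba-a1 and 34.3% in Hba-a2. These shares are for single reads. The libraries were read as pairs, and a pair can be placed by either of its reads. No stretch of that length is shared between an adult beta gene and Hbb-bh1 or Hbb-y, whose coding sequences are 74.1% to 74.4% identical to the adult ones. How the authors' counting divided reads that fit both copies is not given in the sources used here. Values of single copies are therefore uncertain, and sums of copies are given beside them.

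Promoter sequences of adult members are shown as background, and their part in the levels was not tested. Each run is the 250 bases before the RefSeq gene start on GRCm38.p6, 5′ to 3′ on the strand of the gene, with motif matches in capitals. These starts differ from the ends of the gene spans given above, so part of each window lies within its span. The motifs searched on both strands were GATAA (bound by GATA factors), CACCC (bound by KLF1), CCAAT and the TATA-type letters ATAAAA and ATATAA. The last was added after the promoters were read.
Hba-a2 (chr11:32296242-32296491, plus strand): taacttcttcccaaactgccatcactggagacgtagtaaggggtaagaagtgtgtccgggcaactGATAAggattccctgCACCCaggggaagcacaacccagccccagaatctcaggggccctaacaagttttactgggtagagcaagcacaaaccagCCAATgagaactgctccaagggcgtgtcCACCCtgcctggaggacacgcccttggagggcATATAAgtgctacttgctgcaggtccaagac
Hbb-bs (chr7:103827929-103828178, minus strand): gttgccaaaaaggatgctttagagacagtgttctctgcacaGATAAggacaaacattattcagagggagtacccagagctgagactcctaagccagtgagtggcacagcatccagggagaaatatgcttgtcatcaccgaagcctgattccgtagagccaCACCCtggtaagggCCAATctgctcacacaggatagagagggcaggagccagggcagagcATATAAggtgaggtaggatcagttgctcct
Hbb-bt (chr7:103813924-103814173, minus strand): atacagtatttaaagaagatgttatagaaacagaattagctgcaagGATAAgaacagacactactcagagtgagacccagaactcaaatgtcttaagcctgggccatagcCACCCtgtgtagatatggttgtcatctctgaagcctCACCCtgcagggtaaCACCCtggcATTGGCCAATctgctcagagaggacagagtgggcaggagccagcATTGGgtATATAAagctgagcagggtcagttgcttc

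RefSeq windows were matched for 5 of the 6 members, not for Hbb-bh1. The windows of Hba-a1 and Hba-a2 share a run of 247 bases, so 1 of them is shown, while those of Hbb-bs and Hbb-bt are 69.3% identical. All 5 windows hold a GATAA match, as do 22.6% of 32851 windows of this length. They all hold CACCC too, which 52.0% of windows have, and CCAAT, which 33.8% have. The 4 adult windows also hold ATATAA (9.1% of all windows), and that of Hbb-y holds ATAAAA (17.0%). Hbb-bt has 3 matches of CACCC, and 3 of CCAAT with a pair side by side on opposite strands, whereas Hbb-bs has 1 match of CACCC and 1 of CCAAT. These are letter matches and not measured binding.

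Hba-a1, an alpha chain gene, was at 369, 196 and 402 FPKM in treated knockout replicates 1 to 3 and at 508, 409 and 5343 FPKM in untreated knockout. It was at 36.2, 6.13 and 8.78 FPKM in treated wild type and at 247, 442 and 223 FPKM in untreated wild type. All 3 treated wild-type libraries lay below the other 9, and untreated knockout replicate 3 stood far above every other library. Hba-a2, the second alpha copy, was at 366, 192 and 403 FPKM in treated knockout and at 408, 353 and 4357 FPKM in untreated knockout. It was at 33.8, 5.57 and 7.43 FPKM in treated wild type and at 186, 475 and 222 FPKM in untreated wild type. The same libraries stood at both ends, with treated wild type lowest and the same knockout library highest. The ratio of Hba-a1 to Hba-a2 stayed between 0.931 and 1.33 in all 12 libraries.

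Hbb-bs, an adult beta gene, was at 466, 237 and 552 FPKM in treated knockout and at 629, 436 and 6561 FPKM in untreated knockout. It was at 60.2, 28.9 and 23.1 FPKM in treated wild type and at 334, 572 and 310.2 FPKM in untreated wild type. Its low and high libraries were those of the alpha genes, and the treated wild-type libraries again overlapped no other group. Hbb-bt, the other adult beta gene, was at 323, 169.7 and 436 FPKM in treated knockout and at 69.1, 58.5 and 1560.0 FPKM in untreated knockout. It was at 122, 367 and 299.8 FPKM in treated wild type and at 79.3, 259.6 and 117 FPKM in untreated wild type. Its treated wild-type libraries lay among the other groups and not below them, and replicates 1 and 2 of untreated knockout were the lowest of all.

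**Figure D1:**
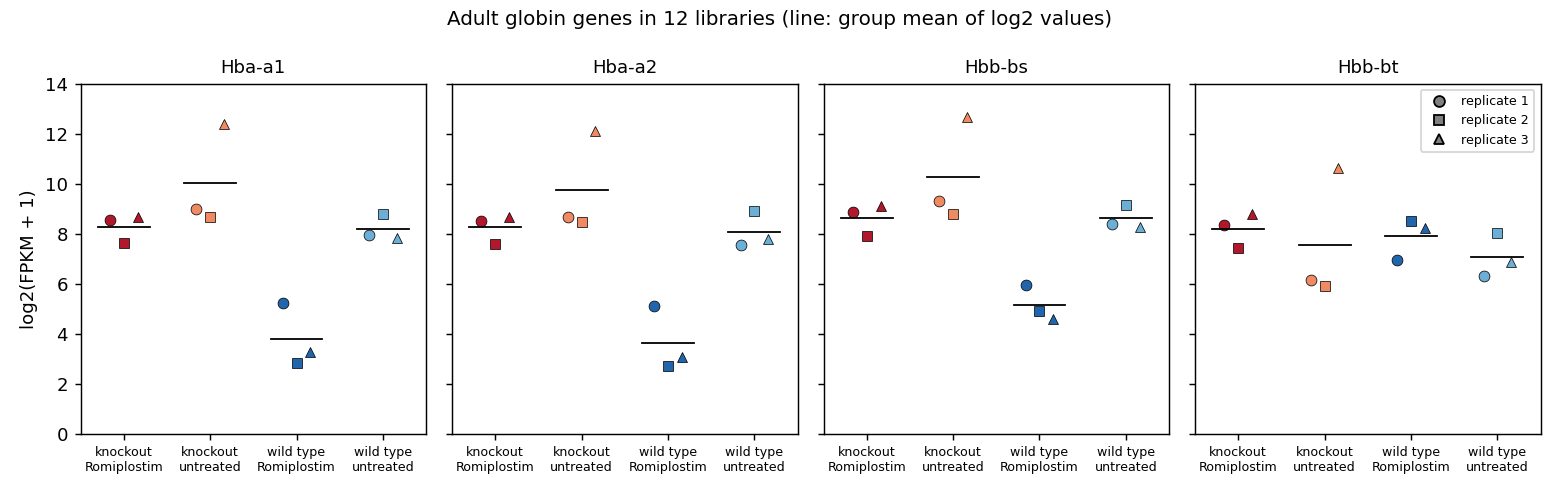
Level of each adult globin gene as log2(FPKM + 1) in 12 libraries; points are libraries, shapes are replicates and lines are group means of the log2 values. Hba-a1, Hba-a2 and Hbb-bs are low in the 3 treated wild-type libraries, Hbb-bt is not, and replicate 3 of untreated knockout is the highest point in each panel.

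Across the 12 libraries the log2 level of Hbb-bs followed that of Hba-a1 with a Pearson r of 0.99, and 0.99 again without untreated knockout replicate 3. The r of Hbb-bt with Hbb-bs was 0.27, and -0.31 without that library. These are descriptions over libraries that share groups. The ratio of Hbb-bt to Hbb-bs, both per length, was 0.693, 0.716 and 0.789 in treated knockout and 0.110, 0.134 and 0.238 in untreated knockout. In wild type it was 2.03, 12.7 and 13.0 with Romiplostim and 0.237, 0.454 and 0.379 without. In both genotypes every treated library had a higher ratio than every untreated one. For single genes tested, these groups did not overlap in either direction for 40.3% in knockout and 26.8% in wild type. The mean log2 ratio, taken after adding 1 FPKM to each gene, was -0.45 in treated and -2.71 in untreated knockout, a difference of 2.26. It was 2.76 in treated and -1.53 in untreated wild type, a difference of 4.29. Hbb-bt made up 40.9% to 44.1% of adult beta FPKM in treated knockout, 9.91% to 19.2% in untreated knockout, 67.04% to 92.85% in treated wild type and 19.2% to 31.2% in untreated wild type. The ratio was chosen after its values were seen and gets no test. It rests on the division of shared reads between near-identical copies, whose part in it was not tested.

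**Figure D2:**
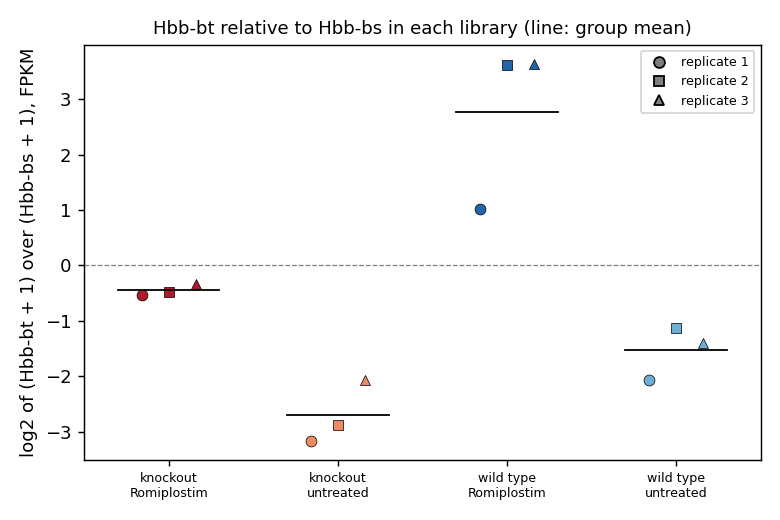
Log2 ratio of Hbb-bt to Hbb-bs (1 FPKM added to each) per library; points are replicates and lines are group means. Every treated library lies above every untreated library of its genotype, and only the treated wild-type libraries lie above 0.

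The balance of alpha to adult beta, as a ratio of summed FPKM, was 0.931, 0.953 and 0.816 in treated knockout and 1.31, 1.54 and 1.19 in untreated knockout. It was 0.383, 0.0295 and 0.0502 in treated wild type and 1.05, 1.10 and 1.04 in untreated wild type. Treated wild-type libraries thus held much less alpha than beta RNA, while untreated wild type held nearly equal amounts. Set against Hbb-bs alone, alpha was 1.16, 0.405 and 0.702 times as high in treated wild type and 1.30 to 1.60 times in untreated wild type. The summed level of the 4 adult genes was 1525, 794 and 1793 FPKM in treated knockout and 1615, 1256 and 17820 FPKM in untreated knockout, against 253, 408 and 339 FPKM in treated wild type and 846, 1749 and 873 FPKM in untreated wild type. Globins took 0.0308% to 0.213% of all FPKM in 11 libraries and 2.18% in untreated knockout replicate 3.

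The embryonic genes were near the floor of detection, and neither reached 1 FPKM in any library, so that they were not in the tests. Only the 4 adult members passed that filter, each at 1 FPKM or more in all 12 libraries. Hbb-bh1, an embryonic beta-type gene, was at 0.235, 0.595 and 0.311 FPKM in treated knockout and at 0.0538, 0.0507 and 0 in untreated knockout. It was at 0.0537, 0.115 and 0.0524 FPKM in treated wild type and listed at 0 in all 3 untreated wild-type libraries. Recovered fragments make these values plainer: 4, 13 and 6 in treated knockout, 1, 1 and 0 in untreated knockout, 1, 2 and 1 in treated wild type and none in untreated wild type. Hbb-y, the other embryonic beta-type gene, had 2, 6 and 4 fragments in treated knockout, 0, 1 and 3 in untreated knockout, 9, 8 and 5 in treated wild type and 1, 0 and 2 in untreated wild type. Both genotypes thus had more embryonic fragments with Romiplostim, mostly Hbb-bh1 in knockout and mostly Hbb-y in wild type. In all, the 6 treated libraries held 61 embryonic fragments and the 6 untreated libraries 9. A floor of 3 fragments corresponds to 0.133 to 0.177 FPKM, and it covers counting error only, since the amplified reads carry no molecular identifiers. Summed FPKM of both genes did not overlap between treated and untreated libraries of either genotype, at 0.344 to 0.850 against 0.0538 to 0.158 in knockout and 0.296 to 0.540 against 0 to 0.104 in wild type. This sum was chosen after its values were seen and gets no test. Among all genes tested, treated and untreated groups did not overlap for 40.3% in knockout and 26.8% in wild type. Bcl11a lay between 23.1 and 31.9 FPKM in every library and passed no comparison.

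**Figure D3:**
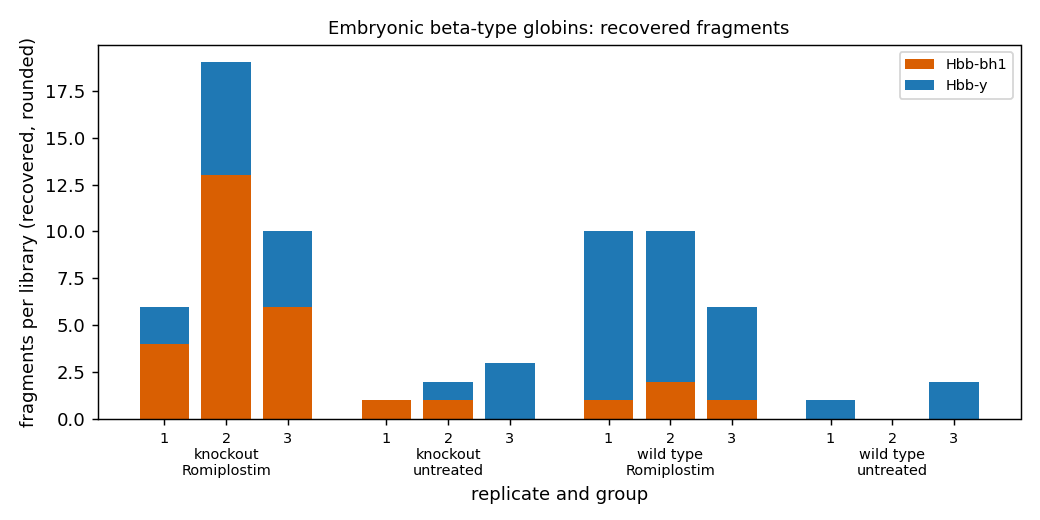
Recovered fragments of Hbb-bh1 (orange) and Hbb-y (blue), stacked, for each library. Treated libraries hold 6 to 19 fragments and untreated libraries 0 to 3.

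The comparison of treated with untreated wild type asks what the agonist changed in stem cells that have their own thrombopoietin. Both alpha genes fell, to a mean of 17.04 ± 16.66 FPKM for Hba-a1 in treated mice, against 304 ± 120.2 in untreated mice (SD, n = 3 each). For Hba-a1 the log2 fold change of (FPKM + 1) was -4.41 ± 0.86 (SE) with a limma adjusted p of 0.0253, and for Hba-a2 it was -4.44 ± 0.88 with 0.0258. Counted together, the alpha copies gave -4.50 ± 0.88 (limma adjusted p = 0.0248). Hbb-bs had a log2 fold change of -3.47 ± 0.81 and missed the criterion (limma adjusted p = 0.0557), and Hbb-bt one of 0.82 ± 1.02 (0.825). The adult beta copies counted together gave -0.88 ± 0.83 (limma adjusted p = 0.749). Thus 2 of the 4 adult genes passed, both lower, while 1.84% of all 12823 genes tested passed and 0.975% passed as lower. The 3 genes other than Hbb-bt did not overlap between the groups, all lower in treated mice. Of all genes 26.8% did not overlap, and 16.5% were lower in that way. The sum of all 4 adult genes had -1.73 ± 0.79 (limma adjusted p = 0.368).

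Within libraries with high Y-linked RNA, Hba-a1 was at 6.13 and 8.78 FPKM in treated and 247 and 223 FPKM in untreated wild type. In the single libraries with low Y-linked RNA it was at 36.2 FPKM in treated and 442 FPKM in untreated wild type. The alpha calls were lost in 5 of 12 fits that each left out 1 library, at -3.93 to -5.12 for Hba-a1 with limma adjusted p of 0.00229 to 0.123 over the 12. The 5 were those without treated replicate 2 or 3 or without any 1 of the 3 untreated wild-type libraries. A fit of the wild-type groups alone with the replicate number as a block was not planned and rests on a pairing read from these data. In it Hbb-bs (limma adjusted p = 0.0192, and 0.000502 to 0.199 over its alternatives) and the adult sum (0.0151, and 0.013 to 0.666) also passed, at the same log2 fold changes. Both passed as well in the planned fit of these groups alone without the block (limma adjusted p = 0.00843 and 0.0362). In that fit 628 genes passed in place of 236. Hbb-bs passed in 3 of 12 fits that left out 1 library and in 6 of 14 other alternatives. In bulk RNA, fewer cells of a type and less RNA per cell cannot be told apart.

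Few genes of the other red cell lists passed in treated wild type. Of 10 tested globin partners and red cell enzymes 1 fell, Car1 (carbonic anhydrase 1), to 2.60 ± 2.33 FPKM in treated mice, against 142 ± 28.0 in untreated mice (log2 fold change -5.54 ± 0.72, limma adjusted p = 0.00285). Of 17 membrane and blood group genes 2 fell, among them Rhd (an Rh blood group protein) with -3.12 ± 0.47 (limma adjusted p = 0.00704). Among 11 iron genes Hmox1, which breaks down heme and is also known to be abundant in marrow macrophages, fell by 2.88 ± 0.27 on the log2 scale (limma adjusted p = 0.000286). None of 13 heme synthesis genes passed with limma (1 had an unadjusted p under 0.05), and Alas2, the first enzyme of heme synthesis in red cells, had -2.18 ± 0.66 (limma adjusted p = 0.141). None of 16 erythroid transcription factors passed with limma either (3 had an unadjusted p under 0.05), with Klf1 at -0.61 ± 0.47 (0.671). In the unplanned paired fit of the wild-type groups alone, 3 partners and enzymes, 1 heme synthesis, 2 iron and 3 membrane genes were lower. Among the transcription factors Gata1 was higher (1.09 ± 0.17, limma adjusted p = 0.038) and Lmo2 lower (-0.54 ± 0.08, 0.0346). Of all 12823 genes tested, 472 were lower and 392 higher in that fit. The heme synthesis gene was Alas2 (limma adjusted p = 0.0378). The median log2 fold change over all libraries was -0.07 for the heme synthesis list and -0.04 for all genes tested. Summed markers of marrow macrophages were 21.7 to 33.0 FPKM in treated and 47.9 to 70.3 FPKM in untreated wild type, and 2 of their 14 genes fell. The part of such cells in the globin values was not tested.

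Without treatment, knockout was set against wild type to ask what the lack of thrombopoietin changed. No adult globin passed, and their values turned on 1 library. Hba-a1 averaged 2087 ± 2820 FPKM in knockout and 304 ± 120.2 FPKM in wild type (SD, n = 3 each), a log2 fold change of 1.83 ± 0.86 with a limma adjusted p of 0.102. It was 1.66 ± 0.88 for Hba-a2 (0.142), 1.64 ± 0.81 for Hbb-bs (0.118) and 0.46 ± 1.02 for Hbb-bt (0.734), and 1.60 ± 0.79 for the adult sum (0.116), with limma adjusted p in parentheses. The adult beta copies counted together gave 1.42 ± 0.83 (limma adjusted p = 0.183). At an unadjusted p under 0.05 there was still none of the 4. Across all genes 45.1% passed, and groups did not overlap for 56.3%, against none of these 4. Without knockout replicate 3 the values were 0.65 for Hba-a1, 0.42 for Hbb-bs, -1.07 for Hbb-bt and 0.39 for the adult sum. Without knockout replicate 2, Hba-a1 passed at 2.50 (limma adjusted p = 0.0475, and 0.0443 to 0.406 over its alternatives), as did Hbb-bs at 2.38 (0.037, and 0.037 to 0.471), and a covariate for high or low Y-linked RNA brought Hba-a1 (2.34, 0.0443) and Hba-a2 (2.24, 0.0494, and 0.0494 to 0.563) past the criterion.

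Many genes of the red cell lists other than globins rose in untreated knockout. Of all 12823 genes tested, 2828 rose and 2951 fell. Of 13 heme synthesis genes 11 rose, among them Cpox (2.22 ± 0.30, limma adjusted p = 0.000154), Abcb10 (1.52 ± 0.19, 9.25e-05) and Alas2 (2.60 ± 0.66, 0.00738). Of 17 membrane and blood group genes 13 rose and 1 fell. Rhd was at 202 ± 17.0 FPKM in knockout and 11.6 ± 1.24 FPKM in wild type, a log2 fold change of 4.01 ± 0.47 (limma adjusted p = 6.78e-05). Kel, a blood group protein, rose by 3.84 ± 0.43 (4.95e-05) and Slc4a1, the band 3 anion exchanger, by 2.72 ± 0.63 (0.00452). Of 11 iron genes 7 rose, including Tfrc, the transferrin receptor (3.02 ± 0.35, limma adjusted p = 5.61e-05). Slc40a1 and Hmox1 also count among them and are set beside the macrophage markers below. Of 10 partners and enzymes 6 rose, including Car1 (3.90 ± 0.72, 0.00115) and Hemgn, a nuclear protein of blood precursors (1.02 ± 0.17, 0.000652).

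Among 16 erythroid transcription factors 5 rose and 7 fell in untreated knockout. Klf1, the activator of adult beta globin, was at 220 ± 19.7 FPKM in knockout and 16.8 ± 2.23 FPKM in wild type (3.64 ± 0.47, limma adjusted p = 0.000124). Gata1 rose by 2.18 ± 0.29 (0.000132), while Lmo2, a partner of GATA1 in DNA-bound complexes, fell by 1.18 ± 0.19 (0.000474). The erythropoietin receptor Epor rose by 2.22 ± 0.27 (7.81e-05). High Klf1 in all 3 libraries thus stood beside high globins in 1. The lists' medians were 1.18 for heme synthesis and 2.22 for the membrane genes, against -0.03 for all genes tested. Without replicate 3 the counts were 10 of 13 and 12 of 16 higher, with medians of 1.14 and 1.86, and 2480 of all 12529 genes were higher.

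Markers of other cells were also higher in untreated knockout, where 2828 of all 12823 genes tested were higher. They were all 14 macrophage, 10 of 12 myeloid, 10 of 10 B cell, 8 of 9 T and NK cell and 8 of 9 stromal and endothelial genes. Their summed levels were 897 to 2705 FPKM in knockout and 47.9 to 70.3 FPKM in wild type for macrophages, and 1802 to 4323 FPKM against 87.9 to 98.6 FPKM for B cells. For myeloid cells they were 8783 to 43830 FPKM in knockout and 1981 to 4472 FPKM in wild type, with the highest value in replicate 3. Stromal and endothelial markers summed to 194, 250.3 and 686 FPKM in knockout replicates 1 to 3 and 38.5 to 69.6 FPKM in wild type, and T and NK cell markers to 361 to 522 FPKM in knockout and 125 to 169 FPKM in wild type. Replicate 3, the library with the high globins, was highest for the myeloid, stromal and T and NK cell genes and lowest of its group for the macrophage genes. The iron exporter Slc40a1 (5.09 ± 0.34, limma adjusted p = 4.77e-06) and Hmox1 (3.64 ± 0.27, 5.74e-06), both known to be abundant in marrow macrophages, were lowest in it too. The part of these cells in the globin values was not tested.

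Treated knockout was compared with untreated knockout to ask what the agonist changed where thrombopoietin is missing. Y-linked RNA was low in all 3 treated and high in all 3 untreated libraries, so its difference and that of treatment cannot be told apart within knockout. None of the adult globins passed with limma. The log2 fold changes were -1.75 ± 0.86 for Hba-a1 (adjusted p = 0.143), -1.49 ± 0.88 for Hba-a2 (0.22), -1.63 ± 0.81 for Hbb-bs (0.147), 0.63 ± 1.02 for Hbb-bt (0.67) and -1.35 ± 0.79 for the adult sum (0.213). The adult beta copies counted together gave -1.05 ± 0.83 (limma adjusted p = 0.36). None of the 4 had an unadjusted p under 0.05, while 29.6% of all genes passed the adjusted criterion. Hba-a1 alone did not overlap between the groups, lower in treated mice (40.3% of all genes did not overlap, and 24.7% were lower in that way). These values again turned on untreated knockout replicate 3. Without it Hba-a1 had -0.57 and Hba-a2 -0.31, and Hbb-bt rose by 2.16 ± 0.56 (limma adjusted p = 0.0183, and 0.0183 to 0.968 over the 12 fits that left out 1 library). In the 2 remaining untreated libraries Hbb-bt was at 69.1 and 58.5 FPKM, below all 3 treated libraries. With the covariate for Y-linked RNA, whose effect can be read from wild type alone, Hba-a1 had -3.28 ± 1.14 (limma adjusted p = 0.116, and 0.0791 to 0.801 over its alternatives), and 770 genes passed in place of 3797.

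Heme synthesis and iron genes fell in treated knockout. Lower were 10 of 13 heme synthesis genes, including Abcb10 (-1.20 ± 0.19, limma adjusted p = 0.000999) and Alas2 (-2.38 ± 0.66, 0.0189), 7 of 11 iron genes and 9 of 17 membrane genes. Of all 12823 genes tested, 2420 were lower. Rhd fell by 1.56 ± 0.47 (limma adjusted p = 0.0282). Klf1 had -1.29 ± 0.47 (0.0579), at 252, 58.0 and 48.2 FPKM in treated and 242, 203 and 216 FPKM in untreated knockout. Treated replicate 1 stood apart in this way for Rhd (196, 41.7 and 37.7 FPKM) and Car1 (5804, 600.4 and 797 FPKM) as well, but not for the globins or Alas2 (6.02, 5.93 and 8.18 FPKM). Without that library 11 heme synthesis, 7 iron and 12 membrane genes were lower, and without untreated replicate 3 they were 8 of 13, 4 of 10 and 5 of 16. With the covariate for Y-linked RNA they were 2 of 13, 3 of 11 and 1 of 17, and Abcb10 (limma adjusted p = 0.055), Alas2 (0.0998) and Rhd (0.129) no longer passed. Without both untreated replicate 3 and treated replicate 2 they were 7 of 13, 4 of 10 and 2 of 16. Among all genes tested, 2181 of 12794, 2012 of 12529, 555 of 12823 and 2775 of 12432 were lower in these fits, in that order. Macrophage markers were at 59.7 to 115.8 FPKM in treated and 897 to 2705 FPKM in untreated knockout, with 14 of 14 genes lower, and 10 of 10 B cell and 9 of 12 myeloid genes were lower. Their part was not tested.

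**Figure D4:**
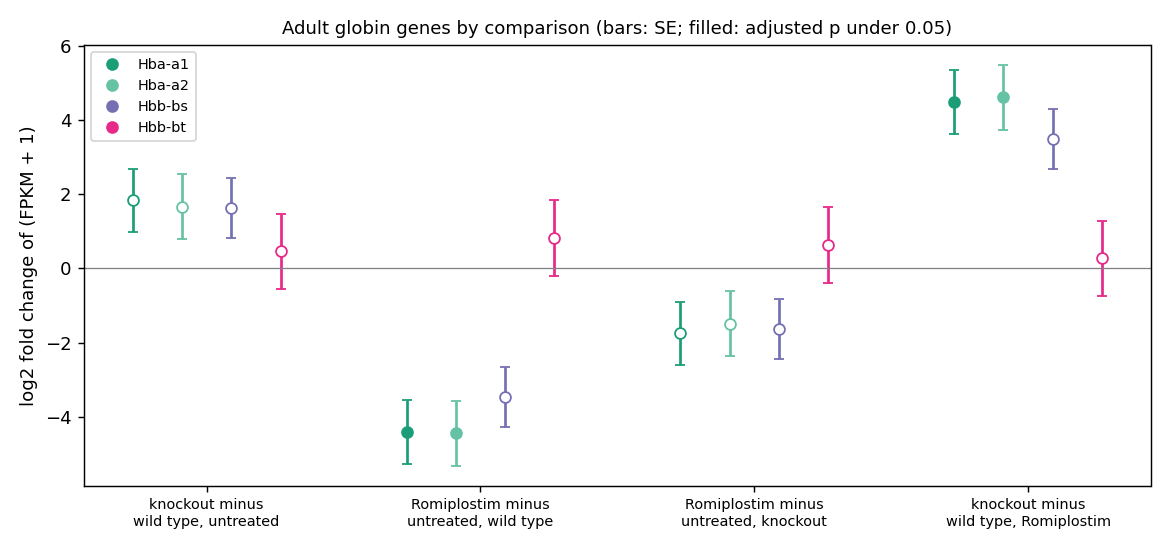
Log2 fold change of (FPKM + 1) with its SE for the 4 adult genes in 4 comparisons; filled points passed the limma adjusted p of 0.05. Hba-a1 and Hba-a2 passed in treated against untreated wild type (-4.41 and -4.44) and in knockout against wild type under Romiplostim (4.49 and 4.62).

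Under Romiplostim, knockout was compared with wild type to ask whether the genotypes differ once both receive the agonist. Both alpha genes were higher in knockout, at 322 ± 110.9 FPKM for Hba-a1 in knockout and 17.04 ± 16.66 FPKM in wild type (SD, n = 3 each). The log2 fold change was 4.49 ± 0.86 for Hba-a1 (limma adjusted p = 0.0298), 4.62 ± 0.88 for Hba-a2 (0.0284) and 4.62 ± 0.88 for the alpha copies together (0.0282). Hbb-bs, with 3.48 ± 0.81, missed the criterion (limma adjusted p = 0.061), Hbb-bt had 0.27 ± 1.02 (0.903), and the adult sum 1.98 ± 0.79 (0.197). The adult beta copies counted together gave 1.25 ± 0.83 (limma adjusted p = 0.417). So 2 of 4 passed as higher, where 1.37% of all genes passed and 0.632% passed as higher. Hba-a1, Hba-a2 and Hbb-bs did not overlap between the groups, all higher in knockout, where 25.1% of all genes did not overlap and 9.94% were higher in that way. The treated wild-type libraries are also those of the comparison with untreated wild type, so both results share them.

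The alpha calls under Romiplostim were lost with a covariate for high or low Y-linked RNA (3.47 for Hba-a1, limma adjusted p = 0.281, and 0.000115 to 0.281 over its alternatives). The treated library of wild type with low Y-linked RNA, as in all 3 treated knockout libraries, had 36.2 FPKM of Hba-a1, against 196 to 402 FPKM in knockout. They were also lost for Hba-a1 in 5 of 12 fits that left out 1 library (4.01 to 5.21, limma adjusted p of 0.00205 to 0.149), those without treated knockout replicate 1 or 3, treated wild-type replicate 2 or 3, or untreated wild-type replicate 3. Hbb-bs passed in 3 of these 12 fits (limma adjusted p of 0.00203 to 0.23) and in 5 of 13 other alternatives (0.000201 to 0.374). Of the other red cell genes 3 of 10 partners and enzymes, 2 of 11 iron and 5 of 17 membrane genes were higher, and none of 13 heme synthesis genes passed with limma (5 had an unadjusted p under 0.05). Car1 (8.86 ± 0.72, limma adjusted p = 0.000308), Rhd (5.57 ± 0.47, 0.00033) and Klf1 (2.96 ± 0.47, 0.0122) were among the higher ones. With the covariate for Y-linked RNA Klf1 no longer passed (2.70 ± 0.59, limma adjusted p = 0.15), while Car1 and Rhd did, and 1 partner or enzyme, 2 iron and 3 membrane genes were higher. Macrophage markers summed to 59.7 to 115.8 FPKM in knockout and 21.7 to 33.0 FPKM in wild type, and B cell markers to 98.5 to 669 FPKM against 67.6 to 70.6 FPKM. Their part was not tested.

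The difference between the agonist effects, knockout minus wild type, did not pass for any adult globin. It was 2.65 ± 1.22 for Hba-a1 (limma adjusted p = 0.158), 2.96 ± 1.24 for Hba-a2 (0.126), 1.84 ± 1.14 for Hbb-bs (0.292), -0.19 ± 1.44 for Hbb-bt (0.944) and 0.38 ± 1.11 for the adult sum (0.85). The adult beta copies counted together gave -0.17 ± 1.17 (limma adjusted p = 0.94). Of the 4, Hba-a2 alone had an unadjusted limma p under 0.05, and 15.6% of all genes passed the adjusted criterion. Without untreated knockout replicate 3 the difference passed for Hba-a1 (3.84 ± 0.80, limma adjusted p = 0.0133), Hba-a2 (4.13 ± 0.85, 0.0129) and Hbb-bs (3.06 ± 0.59, 0.0104). Over the 12 fits that left out 1 library, adjusted p was 0.0133 to 0.312 for Hba-a1, 0.0129 to 0.256 for Hba-a2 and 0.0104 to 0.54 for Hbb-bs, and it passed in that fit alone. The 3 also passed with array weights on all 12 libraries (4.0, 4.40 and 3.10, with limma adjusted p of 0.00296, 0.00181 and 0.00592), while the covariate for Y-linked RNA lowered the values to 1.12 for Hba-a1, 1.23 for Hba-a2 and 0.83 for Hbb-bs (0.688, 0.643 and 0.778). With array weights 6220 of all 12823 genes tested passed the interaction, in place of 1996.

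The 10 genes most like the adult globin sum, by Pearson r of log2(FPKM + 1) over 12 libraries among 11284 named genes, were led by red cell genes. Alas2 came first (r = 0.946) and Slc4a1 next (0.933), followed by Hbq1b, a theta-type globin (0.926). The others, with r of 0.883 to 0.922, included Apol11b, Slc25a37, which carries iron into mitochondria, Rapgef6, Ear6, Kdm7a and Tfpi. Without untreated knockout replicate 3 the r was 0.884 for Alas2, 0.815 for Slc4a1 and 0.674 to 0.849 for the remaining 8. Alas2 was at 6.02, 5.93 and 8.18 FPKM in treated knockout and 22.9, 15.0 and 164 FPKM in untreated knockout. In wild type it was at 0.688, 0.0847 and 0.645 FPKM with Romiplostim and at 5.27, 8.66 and 3.67 FPKM without. Its treated wild-type libraries were lowest and the same knockout library was highest, as for the alpha genes. Slc4a1 was at 1.78, 1.60 and 3.20 FPKM in treated knockout and 6.62, 3.596 and 44.6 FPKM in untreated knockout. In treated wild type it was at 0.110 FPKM in 1 library and listed at 0 in 2, and untreated wild type had 0.857, 1.37 and 0.259 FPKM. The r with Klf1 was 0.73 for Hba-a1, 0.71 for Hbb-bs and 0.05 for Hbb-bt, and with Gata1 it was 0.28, 0.28 and 0.11. Hbb-bt reached an r of at most 0.41 with any of 10 red cell genes compared, that with Slc4a1, and of 0.47 with Hbq1b. Without untreated knockout replicate 3 these were -0.33 and -0.27, and the r of Hba-a1 was 0.68 with Klf1 and 0.13 with Gata1.

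**Figure D5:**
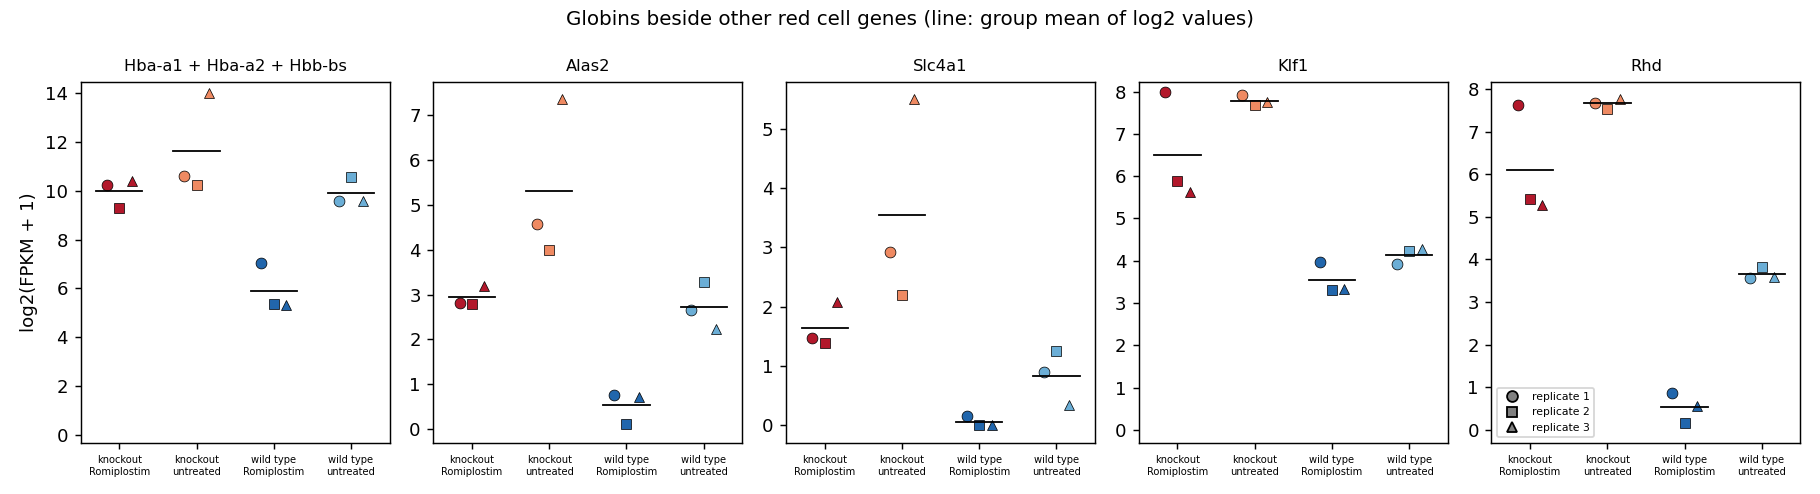
Log2(FPKM + 1) of the summed Hba-a1, Hba-a2 and Hbb-bs beside Alas2, Slc4a1, Klf1 and Rhd; points are libraries, shapes are replicates, lines are group means of the log2 values, and each panel has its own axis. Alas2 and Slc4a1 share the high point of untreated knockout replicate 3 with the globins, whereas Klf1 and Rhd are high in all 3 untreated knockout libraries and in replicate 1 of treated knockout.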

How the data were processed

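RNA was measured in 12 libraries, 4 groups of 3. The authors deposited FPKM values, per the file headers 1 column per library. The submitters' processing notes name Cufflinks 2.2.1, TopHat2 and mm10 but give no roles. Annotation, strand setting and the handling of shared reads are not given in the sources used here. cDNA came from a low-input kit, per the labels' protocols, and was read as 150-base pairs, per the series' design text.

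Identifiers were matched to symbols (34490 of 35275). Depth was estimated from the steps of low FPKM values of genes with 1 transcript, of which 89.2% to 90.6% per library were whole within 0.05 fragment. Recovered fragments of Hbb-bh1 and Hbb-y were rounded, by at most 0.026 and 0.38 fragment. FPKM are not counts, so no count test was run.

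Values were taken as log2(FPKM + 1), which understates changes of low genes. Genes with at least 1 FPKM in at least 3 libraries (12823) were fitted with limma 3.58.1 (R 4.3.3), with a trend, on all 12 libraries. Tests were two-sided, with Benjamini-Hochberg adjustment over all genes and 0.05 as the criterion. Sums of near-identical copies replaced them in further fits. An exact comparison of 3 with 3 libraries cannot reach 0.05. The fit was tested on simulated data. Same-numbered wild-type libraries deviated from their group means together (r = 0.40, 0.12 and 0.38), so the replicate number was taken to pair them. The pairing was thus read from the tested data, and the paired fit of the wild-type groups was not planned. Y-linked RNA differed within pair 1 (22.5 FPKM untreated, 0.0221 treated) and pair 2 (0.137 and 18.5). The other comparisons were not paired, though r was also positive in knockout (0.19, 0.06 and 0.19). The lowest r was -0.12 between treated and -0.19 between untreated genotypes. Alternatives changed the pseudocount, filter, scaling, trend, weights, libraries, block and a covariate for Y-linked RNA.

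The members, the gene lists, the alternatives and the rule for named genes (all members, 9 partners, up to 4 genes per red cell list and contrast with the smallest p, the 10 most similar genes) were chosen with earlier results of these data known. Ahsp and Fam132b, both listed, were not matched in the table. Some genes that the rule names are not reported here. Sequences came from RefSeq (GRCm38.p6) and GENCODE M21, and similarity was computed with Biopython 1.88.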

Additional observations from a re-analysis of the deposited data

Results flagged for a closer look

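The agonist effect differed between the genotypes, by the limma interaction test (knockout minus wild type, log2), for 7 genes that the text names, each with an adjusted p under 0.05. Of all 12823 genes tested 15.6% passed. A small p in this contrast was also 1 way for a gene to be named, so the count of 7 is no separate result. It was 4.96 ± 1.02 for Car1 (limma adjusted p = 0.00991), 2.39 ± 0.45 for Cish (0.00705) and 1.0 ± 0.27 for Lmo2 (0.0291). It was -2.60 ± 0.48 for Slc40a1 (0.00639), -1.84 ± 0.40 for Gata1 (0.013), -1.32 ± 0.27 for Abcb10 (0.00904) and -1.12 ± 0.24 for Hemgn (0.0125). Gata1 was at 232, 109 and 88.7 FPKM in treated and 256, 211 and 199 FPKM in untreated knockout. In wild type it was at 121, 95.8 and 93.5 FPKM with Romiplostim and 40.1, 54.6 and 49.8 FPKM without. With a covariate for high or low Y-linked RNA none of the 7 passed, at limma adjusted p of 0.0515 (Hemgn), 0.0537 (Gata1), 0.067 (Slc40a1), 0.0682 (Cish), 0.082 (Car1), 0.0907 (Abcb10) and 0.155 (Lmo2), and 261 genes passed in place of 1996.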

How the results depend on the processing

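Over 26 alternatives, 12 of which left out 1 library, the adult globin sum kept its direction in every comparison except as follows. An alternative left out 2 libraries, replicate 3 of untreated and replicate 2 of treated knockout, picked for high markers of other cells, but they were not the 2 highest. Untreated knockout replicates 1 and 2, which were kept, had macrophage sums of 1780 and 2705 FPKM, against 115.8 FPKM in treated replicate 2. Their B cell sums were 1802 and 4323 FPKM against 669 FPKM, and their myeloid sums 13000 and 8783 FPKM against 4154 FPKM. Untreated replicate 3 also had the highest globins of all libraries, and its macrophage markers were the lowest of its group. In that fit the log2 fold change of the sum with Romiplostim in knockout was 0.22 (limma adjusted p = 0.671). Without these libraries the sum passed for Romiplostim in wild type (-1.73, 0.013), the treated genotypes (2.33, 0.00661) and the interaction (1.95, 0.0177). With copies kept apart, 434 of all 12432 genes tested then passed in wild type and 1755 between treated genotypes. The sum also passed in wild type with array weights (-1.48, 0.0387), with the compared groups only (-1.73, 0.0362) and with the unplanned replicate block in those groups (-1.73, 0.0151). With copies kept apart, 2488, 628 and 864 genes passed in these fits, in place of 236. The sum passed under Romiplostim with array weights (2.23, 0.00409), where 4327 genes passed in place of 176, and untreated with quantile normalization (1.69, 0.0347). Leaving out 1 library gave 0.39 to 2.30 for knockout against wild type, -1.91 to -1.39 for Romiplostim in wild type, -2.05 to -0.14 in knockout, 1.75 to 2.33 between treated genotypes and -0.32 to 1.60 for the interaction, which lay below 0 without untreated knockout replicate 1 or 2. The sum passed untreated without knockout replicate 2 (limma adjusted p = 0.0397), and in wild type (0.0266) and between treated genotypes (0.0211) without untreated knockout replicate 3. Over the same fits Hbb-bt ranged from -1.07 to 1.29, 0.45 to 1.30, -0.19 to 2.16, -0.20 to 0.65 and -1.02 to 1.34, and the adult beta sum from -1.80 to 0.22 in knockout and -0.92 to 1.10 for the interaction. With array weights Hbb-bt turned to -0.45 untreated and 0.88 for the interaction, and the beta sum to 0.17 in knockout and 0.73 for the interaction. Without both libraries Hbb-bt was at -1.07 and 1.72, the beta sum at 0.59 and 1.47, and Hba-a2 in knockout at 0.02. Without a filter on low values the alpha calls were lost in wild type (Hba-a1 limma adjusted p = 0.0611, and 0.000172 to 0.123 over its alternatives) and between treated genotypes (0.0952, and 0.000115 to 0.281). The causes were not tested, except that fits with fewer groups or libraries hold fewer samples.

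The replicate block over all groups left each call on the adult sum as it was (1.60, -1.73, -1.35, 1.98 and 0.38 in the 5 contrasts). Genes past the criterion numbered 5779, 236, 3797, 176 and 1996, and over all other alternatives but the single-library ones 4251 to 7768, 122 to 2488, 770 to 7138, 28 to 4327 and 261 to 6220. Leaving out 1 library gave 4560 to 6299, 62 to 467, 2214 to 4305, 30 to 1565 and 1093 to 2687. With quantile normalization 58.2% of called genes were higher in treated knockout, against 36.3% without it, and 55.5% against 35.5% for the interaction. Depth limits the embryonic genes, of which no library held more than 13 fragments each.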

Other observations

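Among 7 other globin family genes in the table, Hbq1b alone was tested, and it rose in untreated knockout by 1.55 ± 0.45 on the log2 scale (limma adjusted p = 0.0151), with 9.42 FPKM in replicate 3 and 1.69 and 1.59 FPKM in replicates 1 and 2, against 0.0549 to 0.873 FPKM in untreated wild type. The others, Hba-x, Hbq1a, Hbb-bh2, Mb, Ngb and Cygb, did not exceed 1.17 FPKM in any library. Hba-x, the embryonic alpha-type gene, was listed at 0 in 10 libraries.

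Of 10 tested genes of erythropoietin receptor signalling, 2 rose with Romiplostim in knockout, where 1377 of all 12823 genes tested rose. Cish, a feedback inhibitor of cytokine receptors, was at 20.5 ± 11.2 FPKM in treated and 3.78 ± 0.51 FPKM in untreated knockout (log2 fold change 2.06 ± 0.32, limma adjusted p = 0.000934). Podxl, a surface sialomucin, rose by 3.52 ± 0.36 (8.17e-05) in knockout and by 2.39 ± 0.36 (0.00708) in wild type. The thrombopoietin receptor uses the same kind of signalling chain, which is background and was not tested.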
